A study of Mus musculus with 31 samples.

Results

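Neuronal intermediate filaments are built from the products of 5 genes, Nefl, Nefm, Nefh, Ina and Prph, and these were taken by gene symbol as 5 of the 47729 genes listed in the count table. All 5 were detected and all 5 passed the filter on low counts in every comparison. The filaments are rope-like polymers that fill axons, bear mechanical load and set axon calibre. The neurofilament light chain (Nefl) forms the core on which the medium and heavy chains (Nefm, Nefh) co-assemble, and the long tails of the medium and heavy chains space neighbouring filaments. Alpha-internexin (Ina) is prominent in young neurons of the central nervous system, where it often precedes the neurofilament chains, and peripherin (Prph) is best known from neurons whose axons run in peripheral nerves.

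The study laser-microdissected nerve pieces from sections of mouse embryos carrying Sox10:Histone2BVenus, a transgene that labels the nuclei of neural crest-derived glia, and sequenced their RNA in 31 libraries of 7 groups. Olfactory nerve pieces, cut in the lamina propria under the olfactory epithelium, came from embryos of E11.5, E13.5 or E16.5. The other groups were pieces of the olfactory nerve layer (ONL, the sheet of axons and olfactory ensheathing cells around the olfactory bulb) at E13.5, of its outer part and of its inner part at E16.5, and of the E16.5 trigeminal nerve, in which the glia are Schwann cells. All groups carried the same reporter and none was treated. Each library pooled tissue from a few sections. Each E16.5 olfactory group had 4 libraries and the trigeminal group 3, which the methods place in 4 and 3 embryos. At E11.5 there were 4 libraries from 2 embryos, and at E13.5 there were 7 nerve and 5 ONL libraries from 4 embryos each, so some early libraries shared an embryo and p-values that use them are too small. The labels tie no library to an embryo. Inner and outer ONL pieces were cut by distance from the bulb, with no visible border between them. By the study's account the inner pieces include olfactory bulb tissue and the split does not separate the ensheathing cell types of the inner and outer ONL. The study also reports that the nerve pieces took in some neighbouring tissue. It traced many candidate genes to mesenchyme around the ONL and the olfactory or trigeminal nerve, to the bulb or to the olfactory epithelium. The E16.5 olfactory and trigeminal pieces came from the same sections, so the E16.5 groups share embryos, while the tests treat the groups as independent.

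Library totals ranged from 3512627 to 36705535 counts, with 13379107 to 16800784 in the olfactory libraries of E16.5 and 30221586 to 32508725 in the trigeminal libraries. The labels of the 15 E16.5 libraries matched the study's own group means, each of which equals the mean of 1 set of libraries. For 10 of the 16 early libraries the label and those means disagreed. By the means, the E13.5 ONL group holds the 4 libraries labelled E11.5 nerve and the library labelled E13.5 nerve replicate 1, the E11.5 nerve group holds replicates 2 to 5 of the E13.5 ONL label, and the library labelled E13.5 ONL replicate 1 belongs to E13.5 nerve. The summed level of 11 nerve glia genes ran from 4730 to 7310 CPM (counts scaled to library size with edgeR's TMM factors) in the ONL set by the means and from 610 to 1200 CPM in the E13.5 nerve set. By label, E13.5 ONL ran from 616 to 1200 CPM and E13.5 nerve from 610 to 7310 CPM, the last being replicate 1. Not all of these genes moved together: between the sets by the means, 7 were higher in ONL and 3 lower. Sox10 of that list overlapped, at 71.4 to 219 CPM in ONL and 39.9 to 85.4 CPM in nerve. Because labels and means disagree, early results are given under both groupings, the grouping by the means first.

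The members are a gene family, and their transcripts are alike in 1 common segment. The 30 coding bases at the end of the rod domain, the most conserved stretch of intermediate filament proteins, are given below from the GRCm38 annotated transcripts, 5′ to 3′, with capitals marking the 20 bases that are the same in all 5 genes:
Nefl: gCtTACAGaAAaCTctTgGAaGGcGAaGAG
Nefm: gCgTACAGgAAaCTccTaGAgGGgGAaGAG
Nefh: gCtTACAGaAAgCTccTgGAaGGcGAaGAG
Ina: gCtTACAGgAAgCTccTgGAaGGtGAaGAG
Prph: aCcTACAGgAAgCTacTgGAaGGgGAgGAG

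In GRCm38 (mm10) coordinates the Nefl bases span chr14:68086091-68086508 on the plus strand, across the junction of exons 2 and 3 and including the intron between them. Those of Nefm span chr14:68121363-68122828 on the minus strand, those of Nefh chr11:4941394-4943858 on the minus strand and those of Ina chr19:47021950-47023356 on the plus strand, each across a junction. The Prph bases lie inside exon 6 at chr15:99057444-99057473 on the plus strand. Of these 30 bases 20 were shared by all, and single pairs of members shared more. Over whole transcripts the longest exact run shared by any pair on the same strand was 35 bases, between Nefm and Prph. The other pairs shared runs of 13 to 23 bases. A different limit applies on chromosome 14, where Nefl and Nefm are neighbours and annotated exons of 1 overlap those of the other on the opposite strand over 1108 bases, 32.8% of the exon bases of Nefl and 19.2% of those of Nefm. Ina shares 456 exon bases with Nt5c2 in the same way. The library kit does not mark strand, so reads in those stretches could not be assigned with certainty to 1 gene.

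At E16.5 each of the 4 nerve regions had its own filament gene profile. Nefl and Ina were highest in the inner ONL, Nefm was higher in both parts of the ONL than in either nerve, Prph was highest in the olfactory nerve of the mucosa, and Nefh was low everywhere. Prph was low in both parts of the ONL and in the trigeminal pieces, with overlapping ranges. The trigeminal pieces also held little Ina RNA and at most 2 counts of Nefh. Tubb3, a tubulin of neurons, was low there too, at 5.07 to 5.74 CPM. These are RNA levels of the pieces, and the filament proteins in the axons were not measured. The trigeminal pieces were cut from branches of that nerve, and levels in whole trigeminal neurons were not measured. In bulk pieces, fewer cells of a type and less RNA per cell cannot be told apart.

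**Figure D1:**
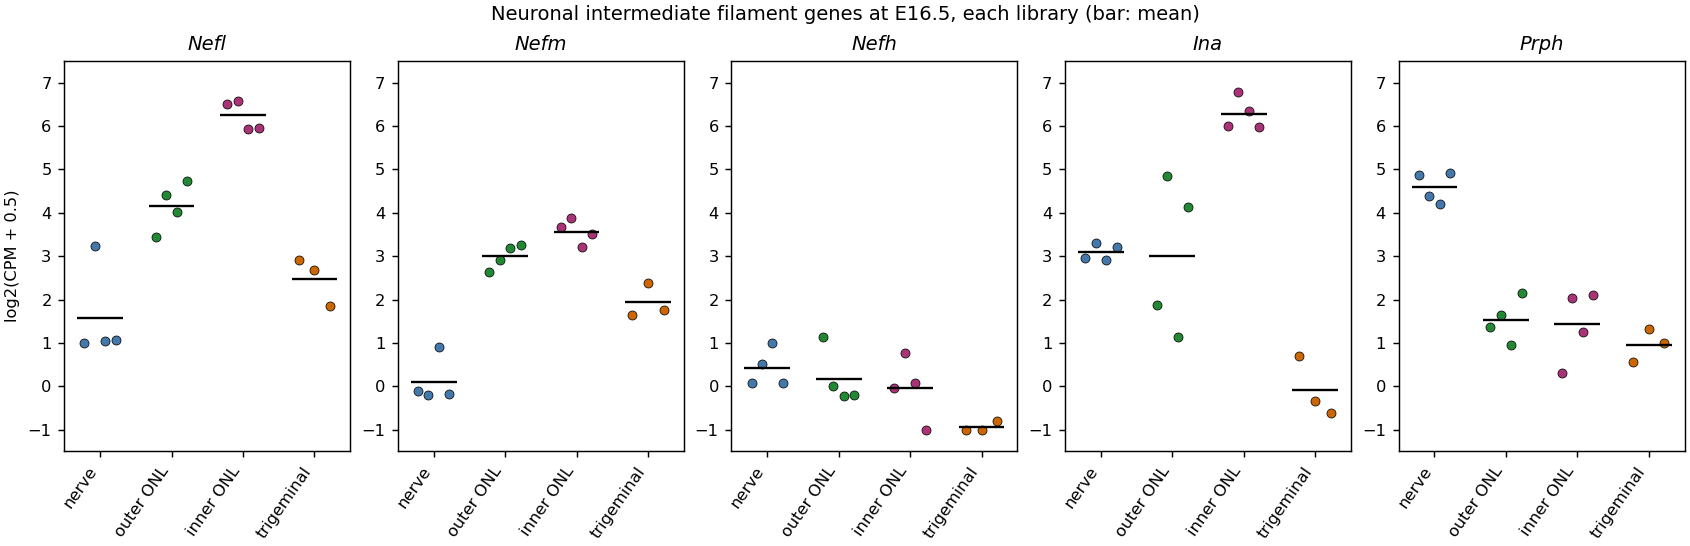
Level of each filament gene in every E16.5 library, as log2(CPM + 0.5), for olfactory nerve, outer ONL, inner ONL and trigeminal nerve, with a bar at the mean. Inner ONL libraries are the highest for Nefl and Ina, nerve libraries are the highest for Prph without overlap with any other group, and outer ONL libraries are split for Ina.

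Nefl, the core subunit, was at 1.49, 8.85, 1.56 and 1.61 CPM in the nerve libraries. The outer ONL libraries had 10.4, 20.7, 15.8 and 26.3 CPM, the inner ONL libraries 91.0, 94.9, 61.1 and 61.1 CPM, and the trigeminal libraries 7, 5.95 and 3.09 CPM. The groups formed a ladder with inner above outer ONL and both above the nerves, and only nerve and trigeminal overlapped, through nerve replicate 2. Inner ONL exceeded outer ONL by 2.1 on the log2 scale (SE 0.47, quasi-likelihood test of edgeR, Benjamini-Hochberg adjusted p = 0.00431) and nerve by 4.48 (SE 0.53, adjusted p = 3.19e-06). Outer ONL exceeded nerve by 2.38 (SE 0.50, adjusted p = 0.0017). The trigeminal level was lower than in the inner ONL (log2 fold change -3.87, SE 0.57, adjusted p = 2.64e-05) and outer ONL (-1.77, SE 0.52, adjusted p = 0.0155). Trigeminal and nerve did not differ beyond their spread, with a log2 difference of 0.61 and a 95% interval from -0.49 to 1.71 (adjusted p = 0.425). That comparison turned on nerve replicate 2: without it the difference was 1.72 (adjusted p = 0.00283), and inner and outer ONL then exceeded nerve by 5.58 and 3.48. Without trigeminal replicate 3 the difference from outer ONL was -1.5 (adjusted p = 0.0688).

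Nefm, the medium chain, was at 0.433, 0.371, 1.37 and 0.388 CPM in nerve, which is 6 to 21 counts a library. Outer ONL had 5.75, 7.04, 8.61 and 9.04 CPM, inner ONL 12.3, 14.2, 8.72 and 10.9 CPM, and trigeminal nerve 2.63, 4.73 and 2.90 CPM. Nerve lay below every library of the other groups, trigeminal lay between nerve and outer ONL without overlap, and outer and inner ONL overlapped. Outer ONL exceeded nerve by 3.5 (SE 0.40, edgeR adjusted p = 5.93e-06), inner ONL exceeded it by 4.13 (SE 0.41, adjusted p = 4.16e-07), and trigeminal nerve by 2.36 (SE 0.41, adjusted p = 0.000327). Without nerve replicate 3, the highest of the 4, those values were 4.21, 4.81 and 3.05. The trigeminal level was lower than in inner ONL (-1.77, SE 0.38, adjusted p = 0.00105) and outer ONL (-1.14, SE 0.38, adjusted p = 0.028). The last call was lost when any of 4 libraries was left out, with values of -1.08 without outer ONL replicate 3, -1.03 without replicate 4, -1.01 without trigeminal replicate 1 and -1.06 without replicate 3, and adjusted p between 0.051 and 0.096. The inner and outer ONL differed by 0.63 (95% interval -0.08 to 1.35, adjusted p = 0.242).

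Nefh, the heavy chain of mature large-calibre axons, was close to the limit of detection. Its levels were 0.557, 0.928, 1.5 and 0.554 CPM in nerve, 1.69, 0.503, 0.356 and 0.366 CPM in outer ONL, and 0.471, 1.2, 0.550 and 0 CPM in inner ONL. The trigeminal libraries held 0, 0 and 2 counts, although they were the deepest of E16.5. The 3 olfactory groups overlapped one another and none of their differences passed the test: inner minus outer ONL was -0.33 (95% interval -2.09 to 1.42), inner ONL minus nerve -0.72 (-2.45 to 1.01) and outer ONL minus nerve -0.38 (-2.08 to 1.31), with adjusted p of 0.86, 0.528 and 0.79. Against a floor of 3 counts per trigeminal library, Nefh was at least 8.11-fold higher in nerve, 6.69-fold in outer ONL and 5.11-fold in inner ONL. Single libraries carried the ONL bounds, which were 3.75-fold without outer ONL replicate 1 and 3.12-fold without inner ONL replicate 2. The edgeR adjusted p for these were 0.0053, 0.00808 and 0.00948, and 1 inner ONL library with 0 counts overlapped the trigeminal libraries.

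Ina was at 7.24, 9.41, 7.02 and 8.70 CPM in nerve and at 63.8, 109.7, 81.2 and 62.6 CPM in inner ONL. Outer ONL had 3.15, 28.4, 1.71 and 17.1 CPM, and trigeminal nerve 1.12, 0.289 and 0.147 CPM. Outer ONL was split, with replicates 2 and 4 above every nerve library and replicates 1 and 3 below them. Inner ONL exceeded outer ONL by 2.66 (SE 0.62, edgeR adjusted p = 0.00579) and nerve by 3.26 (SE 0.64, adjusted p = 0.000522), with no overlap in either. Outer ONL and nerve differed by 0.59 (95% interval -0.68 to 1.87, adjusted p = 0.539). The trigeminal level was lower than in nerve (-4.00, SE 0.83, adjusted p = 0.00155), outer ONL (-4.60, SE 0.84, adjusted p = 0.000421) and inner ONL (-7.26, SE 0.92, adjusted p = 4.81e-06). Trigeminal replicate 1 was the highest of its group, and without it those differences were -5.21, -5.83 and -8.49. Without outer ONL replicate 2 the difference of inner from outer ONL was 3.45 and that of trigeminal nerve from outer ONL -3.81.

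The split of the outer ONL libraries was shared by other neuronal transcripts. Tubb3, the neuron-specific beta-tubulin, was at 11.4, 199, 23.7 and 95.8 CPM in outer ONL replicates 1 to 4, against 340 to 746 CPM in inner ONL, 150 to 283 CPM in nerve and 5.07 to 5.74 CPM in trigeminal nerve. The summed level of 15 genes of olfactory bulb neurons ran from 39.1 to 259 CPM in outer ONL, from 779 to 1370 CPM in inner ONL, from 204 to 299 CPM in nerve and from 231 to 253 CPM in trigeminal nerve, with no count of Neurod6 in any trigeminal library and at most 3 counts of Tbx21 in any nerve library. All 15 of these genes were higher in inner than in outer ONL. Their part in the higher Nefl and Ina of the inner ONL was not tested. Replicates 2 and 4 of outer ONL were also its highest libraries for Nefl and for Prph, and replicates 3 and 4 for Nefm.

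Prph, peripherin, had the reverse pattern. Its levels were 29.0, 20.6, 17.9 and 29.6 CPM in nerve, against 2.07, 2.64, 1.42 and 3.91 CPM in outer ONL and 0.740, 3.61, 1.88 and 3.80 CPM in inner ONL. Trigeminal nerve had 0.974, 1.98 and 1.51 CPM. Every nerve library lay above every library of the other 3 groups, which overlapped one another. Compared with nerve, Prph was lower in outer ONL by a log2 fold change of -3.33 (SE 0.43, edgeR adjusted p = 2.05e-05), in inner ONL by -3.30 (SE 0.43, adjusted p = 1.01e-05) and in trigeminal nerve by -4.08 (SE 0.50, adjusted p = 1.09e-05). Inner and outer ONL differed by 0.03 (95% interval -0.87 to 0.93, adjusted p = 0.979), a difference whose sign depended on the setting. The trigeminal level differed from outer ONL by -0.75 (-1.73 to 0.22, adjusted p = 0.239) and from inner ONL by -0.78 (-1.76 to 0.20, adjusted p = 0.188). Without inner ONL replicate 1 the last value was -1.10 and passed the test (adjusted p = 0.035). The summed level of 11 olfactory sensory neuron genes was likewise highest in nerve, at 332 to 616 CPM, against 88.2 to 113 CPM in outer ONL, 87.3 to 108 CPM in inner ONL and 239 to 323 CPM in trigeminal nerve, where Gng13, Cnga4 and Stoml3 of that list had at most 3 counts in any library. The higher trigeminal sum did not follow most of the list. In trigeminal nerve 6 of these genes were lower and 1 higher than in outer ONL. Against inner ONL 7 were lower and 2 higher, among the latter Ebf2 (4.55, edgeR adjusted p = 5.01e-08). Omp, the defining gene of mature olfactory sensory neurons, ran from 23.3 to 48.2 CPM in nerve, 10.4 to 14.6 CPM in outer ONL, 3.53 to 6.86 CPM in inner ONL and 0.288 to 1.18 CPM in trigeminal nerve. The part of these neurons in the higher Prph of the nerve was not tested.

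**Figure D2:**
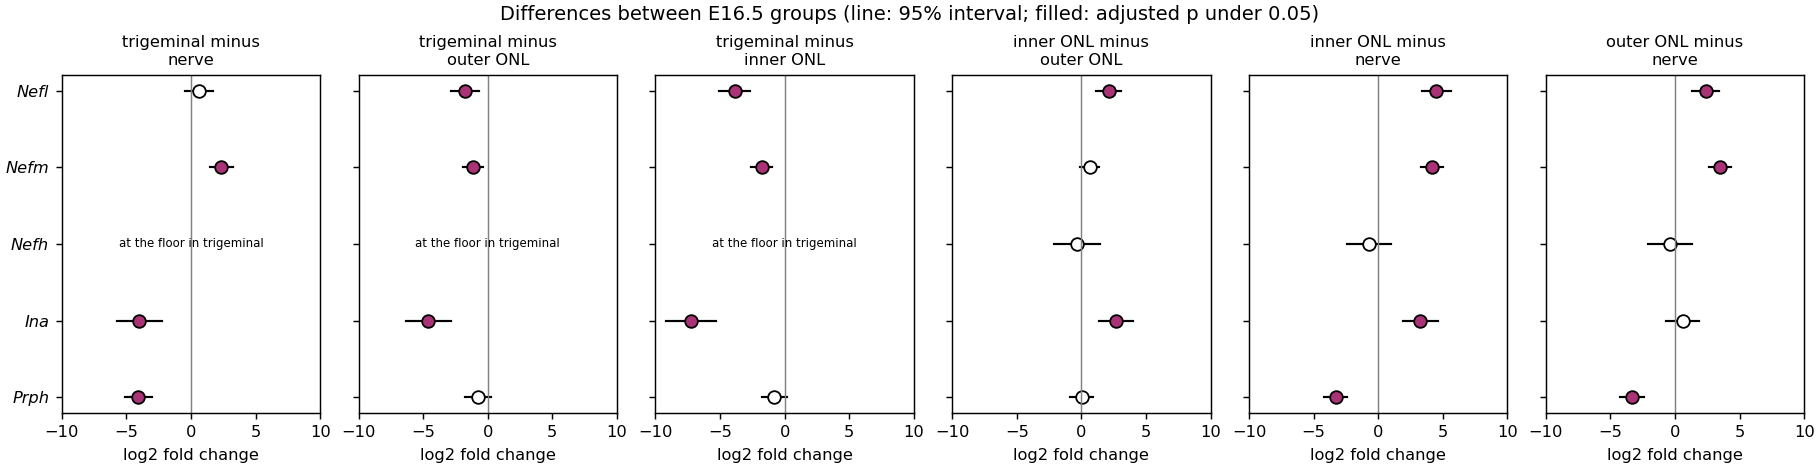
Log2 fold change of each filament gene in the 6 comparisons of E16.5 groups, with its 95% interval, filled where the edgeR adjusted p was under 0.05. Nefl and Nefm lie right of 0 and Prph left of 0 in both comparisons of ONL with nerve, and Nefh has no point where the trigeminal libraries held at most 2 counts.

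Read against all 17800 genes tested, at least 2 members differed in each E16.5 comparison, and many other genes did as well. Between outer ONL and nerve 3 of 5 members passed, where 25.7% of all genes passed, with 2 members higher in the ONL (10.3% of all genes) and 1 lower (15.4%). Inner ONL and nerve differed in 4 of 5 (40.3%), with 3 higher (19.1%) and 1 lower (21.2%). Between inner and outer ONL 2 of 5 passed (17.7%), both higher in the inner part (10.1%), and 0 were lower (7.54%). Trigeminal nerve differed from nerve in 4 of 5 (26.9%), with 1 higher (11.7%) and 3 lower (15.2%). From outer ONL it differed in 4 of 5 (31.3%), 0 higher (16.2%) and 4 lower (15.1%), and only 2 members remained called without trigeminal replicate 3. From inner ONL it differed in 4 of 5 (43.9%), 0 higher (21.7%) and 4 lower (22.1%). The comparisons share groups, so their counts are not independent.

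The mixture of filament genes also varied between regions, but outer ONL and trigeminal libraries overlapped in the shares of all 5 genes. Outer and inner ONL libraries overlapped in the shares of Nefl and Ina. Expressed per kilobase of exon, the 5 members summed to 16 ± 2.67 CPM per kb (SD, n = 4) in nerve, 12 ± 5.86 (n = 4) in outer ONL, 50.7 ± 11.1 (n = 4) in inner ONL and 3.08 ± 0.752 (n = 3) in trigeminal nerve. In nerve, Prph held 75.5% ± 8.92 (SD) of that sum, Ina 15.9% ± 2.5 and Nefl 6.30% ± 6.67. In inner ONL, Ina held 48.2% ± 6.32 and Nefl 45.1% ± 6.65, with Prph at 2.54% ± 1.61. In outer ONL, Nefl held 47.8% ± 11.3, Ina 25.9% ± 19.0, Nefm 12.9% ± 5.85 and Prph 11.2% ± 3.62. The trigeminal mixture was Nefl 50.2% ± 10.5, Prph 25.1% ± 9.78, Nefm 19.5% ± 5.11 and Ina 4.91% ± 4.65. Prph thus ranged from 63.9% to 83.4% in the nerve libraries and at most 33.8% in any other E16.5 library, whereas Nefl did not fall under 34.9% outside the nerve or exceed 16.3% inside it. Nefh held at most 6.51% in any library. In trigeminal nerve the order of Nefm and Prph depended on the length used: raw CPM with no length gave Nefm 32.2% and Prph 14.4%, and the length of 1 annotated transcript gave 28.5% and 24%. These shares were not tested, and those of Nefl and Nefm depend on how reads in their overlap were counted.

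**Figure D3:**
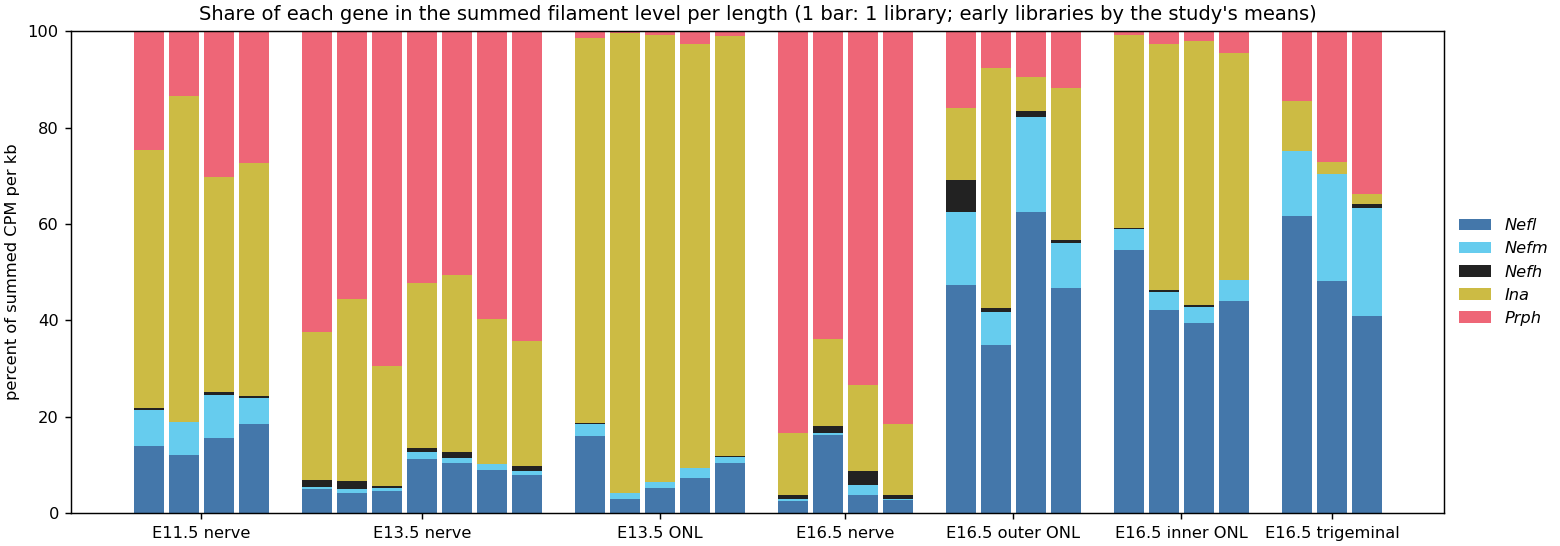
Percent of the summed CPM per kb contributed by each filament gene, 1 bar per library, in the 7 groups with early libraries placed by the study's means. Prph fills most of each E16.5 nerve bar, Ina fills 79.8% to 95.5% of each E13.5 ONL bar, and Nefl is the largest or second largest part in E16.5 ONL and trigeminal bars.

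Dividing by Tubb3 set the members beside another axonal transcript in the same library. The log2 ratio of Nefl to Tubb3 was -6.01 ± 1.37 (SD, n = 4) in nerve, -1.45 ± 1.40 in outer ONL, -2.93 ± 0.34 in inner ONL and -0.07 ± 0.52 (n = 3) in trigeminal nerve. Nefm gave -7.49 ± 0.75, -2.60 ± 1.76, -5.61 ± 0.49 and -0.61 ± 0.32 in the same order. The trigeminal ratio of Nefl lay within its spread of 0, and nerve had the lowest mean ratio of both genes. For Ina the ratios were -4.50 ± 0.43, -2.60 ± 0.73, -2.90 ± 0.47 and -2.64 ± 0.71, so that outer ONL, inner ONL and trigeminal nerve overlapped and only nerve stood lower. Prph gave -2.99 ± 0.27 in nerve, -4.08 ± 1.58 in outer ONL, -7.75 ± 1.21 in inner ONL and -1.59 ± 0.33 in trigeminal nerve. An exact two-sided permutation test on each of 30 differences gave 11 unadjusted p under 0.05 and none after Benjamini-Hochberg adjustment. The smallest p it can give is 0.0286 for 4 against 4 libraries and 0.0571 for 4 against 3. Over these 30 tests no adjusted p could therefore fall under 0.05, whatever the values, so the lack of calls decides nothing. The smallest adjusted p was 0.0779. The direction depended on the reference. Relative to Stmn2, another axonal transcript, trigeminal minus nerve was -0.72 for Ina and -1.17 for Prph, where Tubb3 gave 1.86 and 1.41, and trigeminal minus outer ONL was -0.57 for Nefl, where Tubb3 gave 1.38.

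**Figure D4:**
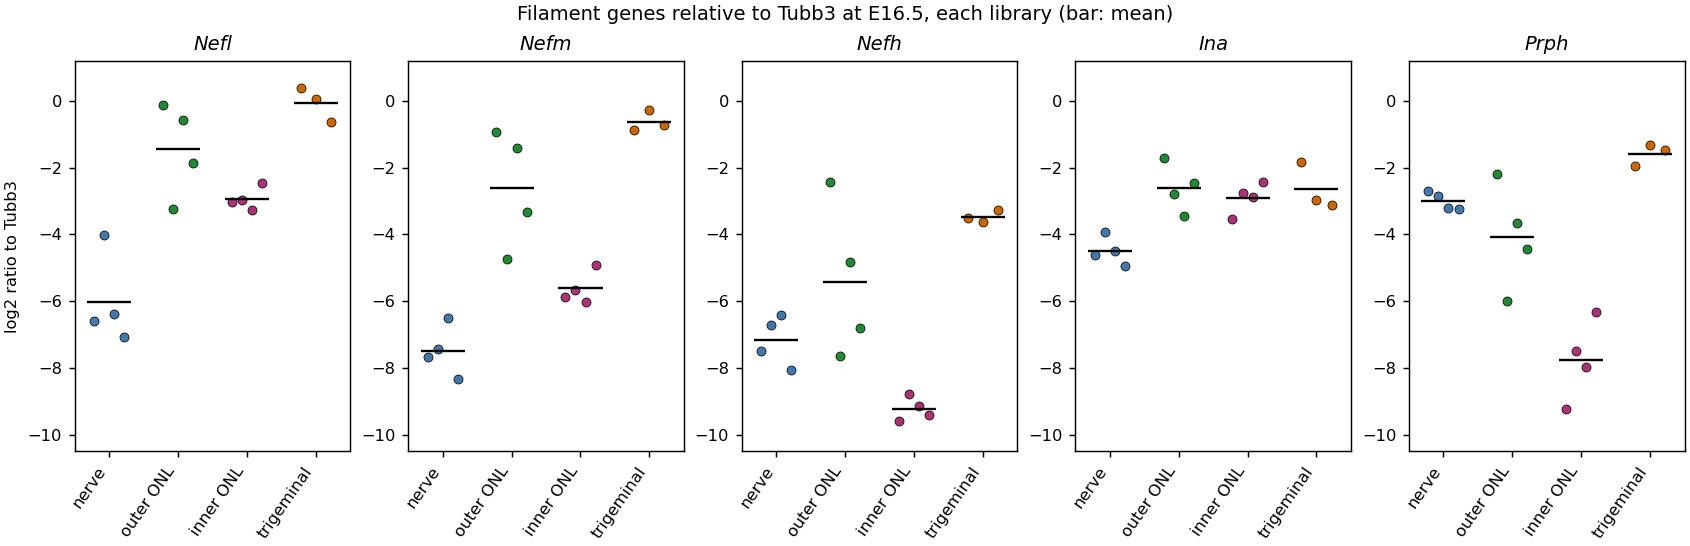
Log2 ratio of each filament gene to Tubb3 in every E16.5 library, with 0.5 CPM added to both and a bar at the mean. The means of Nefl and Nefm are lowest in nerve and highest in trigeminal nerve, an order that other reference genes change for Nefl, and the trigeminal points of Nefh rest on the added 0.5 CPM since at most 2 counts were found.

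Other neuronal transcripts were counted in the same comparisons, from a list of genes of axon structure that are not all confined to axons. Of 16 genes of axon structure, 15 were higher in inner than in outer ONL and 1 lower (median log2 fold change 2.49, against -0.02 over all genes), among them Mapt (2.91, edgeR adjusted p = 0.00242), the axonal microtubule protein tau. Between outer ONL and nerve, 2 were higher and none lower (median -0.03), namely Map2 (1.26, adjusted p = 5.47e-05) and Tubb2a (0.91, adjusted p = 0.00576). Between trigeminal nerve and nerve, 3 were higher and 11 lower (median -2.28), with Tubb3 at -5.28 (adjusted p = 6.69e-05) and Sncg, gamma-synuclein of sensory neurons, at 4.48 (adjusted p = 4.84e-07).

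Genes that serve the filaments went both ways. Of 15 genes for linkers, transport and turnover, 3 were higher and 3 lower in trigeminal nerve than in nerve (median -0.04), 2 higher and 4 lower in outer ONL than in nerve (median -0.28), and 7 higher and 1 lower in inner than in outer ONL (median 0.42). Kif5a, a kinesin motor that carries neurofilaments along axons, ran from 681 to 1031 CPM in trigeminal nerve and from 148 to 191 CPM in nerve (2.25, SE 0.26, edgeR adjusted p = 5.22e-06), without overlap. Plec, a plectin that links filaments to other parts of the cytoskeleton, was higher in trigeminal nerve (0.69, adjusted p = 0.0345) and lower in outer ONL (-1.46, adjusted p = 0.0001) than in nerve. Cdk5r1, the activator of the kinase Cdk5, which phosphorylates neurofilament tails, was lower in trigeminal nerve (-1.79, adjusted p = 0.0223) and higher in outer ONL (1.89, adjusted p = 0.00462) than in nerve, and higher still in inner than in outer ONL (2.44, adjusted p = 0.000791).

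Among 13 other intermediate filament genes, 4 were higher and 6 lower in trigeminal nerve than in nerve, 2 higher and 7 lower in outer ONL than in nerve, and 1 higher and 5 lower in inner than in outer ONL. Vim, vimentin of glia and mesenchyme, ran from 1833 to 2191 CPM in trigeminal nerve and from 638 to 776 CPM in outer ONL (1.51, SE 0.14, edgeR adjusted p = 2.58e-07), without overlap. The epithelial keratins Krt5, Krt8 and Krt14 had the largest falls in this list from nerve to outer ONL (-8.30, -6.43 and -6.19, edgeR adjusted p = 4.01e-05, 6.29e-07 and 5.97e-06).

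Other cells also differed between the E16.5 groups. Summed nerve glia genes ran from 20600 to 36500 CPM in outer ONL, 22400 to 28800 in inner ONL, 1850 to 4110 in nerve and 2470 to 3260 in trigeminal nerve. Summed mesenchyme genes (9 genes) ran from 6880 to 12700, 1560 to 2900, 11200 to 18500 and 27200 to 31700 CPM in the same order, and 9 genes of endothelium and blood from 2100 to 5840, 1340 to 2240, 2280 to 7720 and 4560 to 8480 CPM. The glia genes did not all follow their sum: in trigeminal nerve 5 of 11 were lower and 3 higher than in outer ONL. Npy (-8.25, edgeR adjusted p = 1.63e-09) and Fabp7 (-7.82, adjusted p = 6.25e-10) were far lower. Sox10 was lower by less (-0.93, adjusted p = 0.00291), and Mbp was higher (5.36, adjusted p = 8.12e-10). Of 15 peripheral sensory neuron genes measured, the sum was 587 to 702 CPM in trigeminal nerve, 326 to 384 in nerve, 358 to 532 in outer ONL and 385 to 494 in inner ONL. Calca was at 188 to 253 CPM in trigeminal nerve and 0.650 to 7.36 CPM in nerve (6.20, edgeR adjusted p = 1.03e-06), while Isl1 (-4.67, adjusted p = 0.0197) and Scn9a (-4.17, adjusted p = 2.36e-05) of the same list were lower in trigeminal nerve. Of the 10 genes of this list that were tested, 4 were higher and 2 lower. Pou4f1, Prdm12 and Scn10a had at most 3 counts in any trigeminal or nerve library. The 6 autonomic genes summed to at most 0.368 CPM in any E16.5 library. Gnrh1 varied from 6.31 to 131 CPM among nerve libraries. The part of these cells in the filament gene differences was not tested.

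The early libraries address how the filament genes differed between nerve and ONL at E13.5 and from E11.5 to E16.5. Some of these libraries share an embryo, which makes the p-values here too small. By the study's means, Prph was higher in nerve and Ina, Nefl and Nefm were higher in the ONL at E13.5. The E13.5 nerve had a lowest, median and highest Prph of 29.1, 41.9 and 80.7 CPM, and the 5 ONL libraries had 2.77, 1.01, 1.43, 4.78 and 1.72 CPM. Every ONL library lay below every nerve library, and the log2 fold change was -4.36 (SE 0.41, edgeR adjusted p = 1.01e-09). Ina was at 27.7, 37.7 and 46.9 CPM in nerve (lowest, median, highest) and at 245, 420, 315, 253 and 262 CPM in ONL, again without overlap (3.00, SE 0.38, adjusted p = 1.88e-07). Nefl (8.86 ± 2.35 CPM, SD, n = 7 in nerve, 27.5 ± 15, n = 5 in ONL) and Nefm (1.81 ± 0.39 and 9.37 ± 2.86 CPM) were also higher in the ONL, by 1.60 (SE 0.36, adjusted p = 0.000674) and 2.34 (SE 0.26, adjusted p = 2.46e-08). Nefh was at 0.140 to 2.43 CPM in nerve and 0.104 to 0.830 CPM in ONL (-1.70, 95% interval -3.42 to 0.01, adjusted p = 0.128). Thus 4 of 5 members passed where 31.5% of all 19332 genes did, 3 higher in the ONL (15.4%) and 1 lower (16.1%). The sum of olfactory sensory neuron genes was 334 to 648 CPM in nerve and 131 to 203 CPM in ONL. The sum of olfactory bulb neuron genes was 1170 to 1540 CPM in that ONL group and 156 to 221 CPM in nerve. The part of both in the result was not tested.

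Grouped by label, the same E13.5 comparison gave another answer. Nefl (2.32, SE 0.48, edgeR adjusted p = 0.00235) and Nefm (4.2, SE 0.52, adjusted p = 1.36e-05) were higher in ONL, while Ina (1.57, 95% interval 0.42 to 2.72, adjusted p = 0.0508), Prph (0.78, -0.18 to 1.74, adjusted p = 0.247) and Nefh (0.72, -0.85 to 2.29, adjusted p = 0.547) did not pass. Every member overlapped between the groups. That was 2 of 5 members against 17.7% of all genes, 2 higher (8.88%) and 0 lower (8.81%). Without the library labelled E13.5 ONL replicate 1, Ina passed (1.84, adjusted p = 0.00982). Prph and Nefh had opposite signs under the 2 groupings, and Nefl, Nefm and Ina the same sign.

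**Figure D5:**
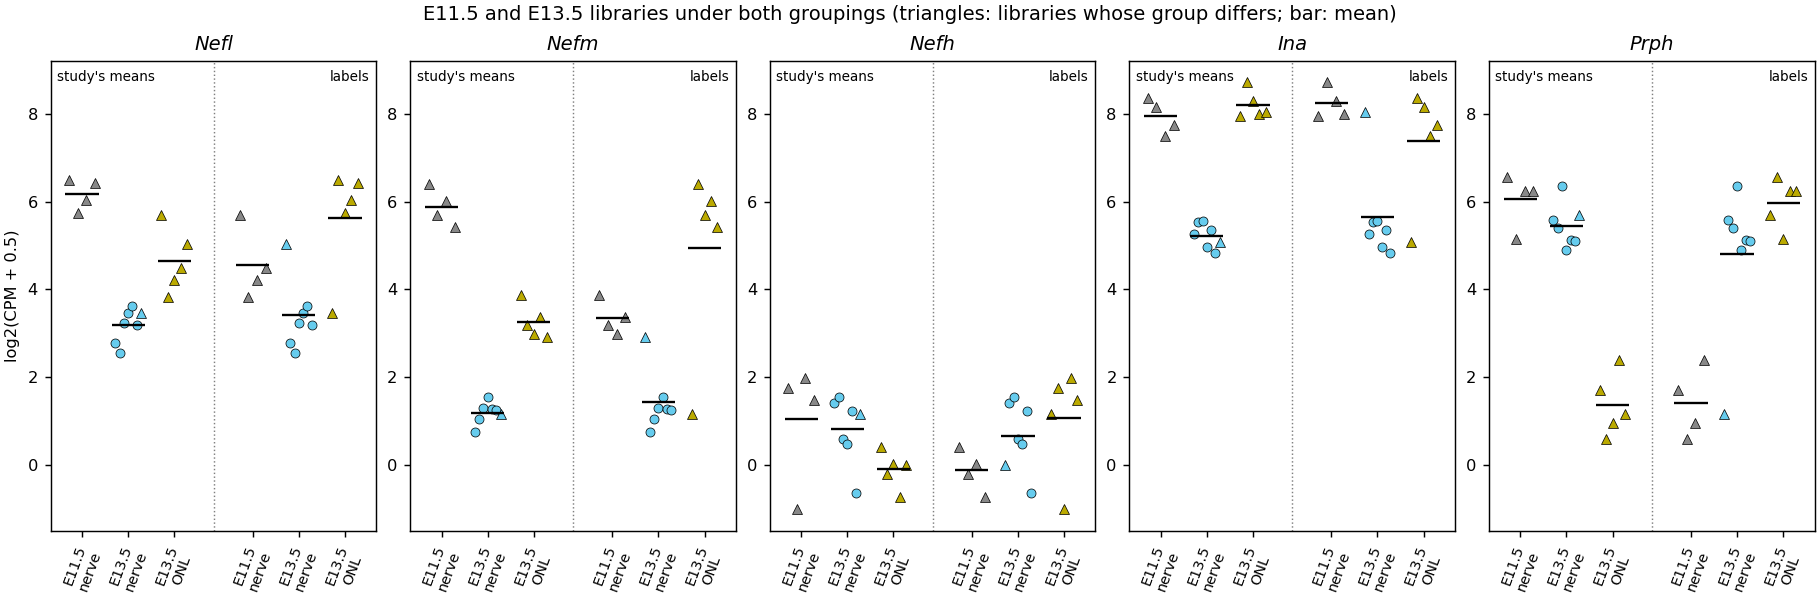
Level of each filament gene in every E11.5 and E13.5 library, as log2(CPM + 0.5), grouped by the study's means on the left of each panel and by label on the right, with triangles for libraries whose group differs and a bar at the mean. By the means the E13.5 nerve and ONL groups do not overlap for Ina or Prph, and by label single libraries of E13.5 nerve and ONL lie far from the rest of their groups.

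In the olfactory nerve, Nefl, Nefm and Ina were lower at E13.5 than at E11.5 by the means. Nefm was at 84.1, 51.3, 63.9 and 42.4 CPM at E11.5 and between 1.17 and 2.43 CPM at E13.5, a log2 fold change of -5.05 (SE 0.28, edgeR adjusted p = 4.18e-14). Nefl was at 88.8, 52.9, 65.3 and 85.6 CPM at E11.5 and between 5.37 and 11.9 CPM at E13.5 (-3.04, SE 0.37, adjusted p = 2.03e-07), and Ina at 330, 287, 180 and 215 CPM against 27.7 to 46.9 CPM (-2.75, SE 0.39, adjusted p = 1.96e-06). All 3 were apart without overlap. Prph was at 93.4, 35.2, 75.2 and 74.9 CPM at E11.5, which overlapped the E13.5 range (-0.62, 95% interval -1.3 to 0.07, adjusted p = 0.153), and Nefh ranged from 0 to 3.44 CPM at E11.5 (-0.58, -2.14 to 0.99, adjusted p = 0.594). This made 3 of 5 members with 36.6% of all genes, 0 higher (20.2%) and 3 lower (16.4%). The sum of 16 genes of axon structure was 8450 to 12000 CPM at E11.5 and 2180 to 3810 CPM at E13.5, and its part in these differences was not tested. By label, 3 of 5 members passed with 17.5% of all genes, 1 higher (9.31%) and 2 lower (8.18%), namely Nefm at -1.89 (adjusted p = 0.0126), Ina at -2.13 (adjusted p = 0.0128) and Prph at 3.99 (adjusted p = 0.000214), the last being 4.62 without the library labelled E11.5 nerve replicate 4. Nefl (-1.09, 95% interval -2.13 to -0.04, adjusted p = 0.146) and Nefh (1.57, -0.42 to 3.57, adjusted p = 0.293) did not pass.

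Ina, Nefm and Nefl were lower again in the E16.5 nerve than in the E13.5 nerve. By the means, Ina at E16.5 lay below every E13.5 library (-2.21, SE 0.45, edgeR adjusted p = 0.000392). Nefm (-1.51, SE 0.33, adjusted p = 0.000981) and Nefl (-1.40, SE 0.42, adjusted p = 0.012) fell with some overlap, and Prph (-0.91, 95% interval -1.63 to -0.18, adjusted p = 0.0547) and Nefh (-0.71, -2.38 to 0.97, adjusted p = 0.56) did not pass. The count was 3 of 5 members with 28.8% of all genes, 0 higher (15.2%) and 3 lower (13.6%). Prph passed with upper quartile scaling (-0.93, adjusted p = 0.0474). Other cells differed as well. Of 9 mesenchyme genes, 7 were higher at E16.5 and 2 lower. Of 11 nerve glia genes 7 were higher and 0 lower, and of 9 genes of endothelium and blood 6 and 0. Summed mesenchyme genes ran from 4240 to 7290 CPM at E13.5 and from 11200 to 18500 CPM at E16.5. Of 16 genes of axon structure, 0 were higher and 2 lower. Their part in the fall of the 3 members was not tested. The fall of Nefl was lost without E16.5 nerve replicate 1, 3 or 4 (-1.16, -1.12 and -1.11, adjusted p of 0.0601, 0.0683 and 0.0604) and grew to -2.52 without replicate 2, and that of Nefm was -2.11 without replicate 3. By label 3 of 5 members passed with 25.1% of all genes, 0 higher (12.4%) and 3 lower (12.6%), namely Ina at -3.12 (adjusted p = 0.00196), Nefm at -2.05 (adjusted p = 0.0175) and Nefl at -1.85 (adjusted p = 0.0188). There the calls of Nefl and Nefm each lost significance without any of 3 nerve libraries: Nefl was -1.60, -1.55 and -1.55 without replicates 1, 3 and 4, and Nefm -1.90, -1.86 and -1.78 without replicates 1, 2 and 4. Without the remaining one they were -2.96 and -2.64. Prph (-0.66, 95% interval -1.72 to 0.40, adjusted p = 0.379) and Nefh (-0.51, -2.27 to 1.25, adjusted p = 0.709) did not pass by label.

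In the ONL, by the means, only Ina differed between E13.5 and the outer ONL of E16.5. It dropped from 245 to 420 CPM to 1.71 to 28.4 CPM, a log2 fold change of -4.56 (SE 0.51, edgeR adjusted p = 2.44e-08), and -5.33 without outer ONL replicate 2. With it, 14 of 16 genes of axon structure were lower (median -2.59) and 0 higher, 8 of 15 olfactory bulb neuron genes were lower and 0 higher, and 8 of 11 nerve glia genes were higher and 0 lower. The bulb neuron sum was 1170 to 1540 CPM at E13.5 and 39.1 to 259 CPM in the outer ONL of E16.5. Their part in the fall of Ina was not tested. Nefl (-0.56, 95% interval -1.39 to 0.27, adjusted p = 0.279), Nefm (-0.27, -0.85 to 0.31, adjusted p = 0.472), Nefh (0.71, -1.19 to 2.61, adjusted p = 0.574) and Prph (0.20, -0.70 to 1.10, adjusted p = 0.755) did not pass, so that 1 of 5 members was called where 41.9% of all genes were, 0 higher (21.9%) and 1 lower (20%). By label 4 of 5 were called with 35.2% of all genes, 0 higher (18.2%) and 4 lower (17.1%), namely Nefl -1.73 (adjusted p = 0.0191), Nefm -2.68 (adjusted p = 0.000914), Ina -4.05 (adjusted p = 0.000144) and Prph -4.70 (adjusted p = 3.42e-06). Nefh was -1.51 (95% interval -3.42 to 0.39, adjusted p = 0.209). By label Nefl was -1.51 and -1.67 without outer ONL replicates 1 and 3 and no longer called (adjusted p = 0.0721 and 0.0514), and Ina was -4.82 without replicate 2.

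Between the E13.5 ONL and the outer ONL of E16.5, only Ina had a difference from nerve that changed with stage by the means. That difference was 3.00 at E13.5 and 0.59 in the separate fit for the outer ONL at E16.5, and the test of the change between stages gave a log2 value of -2.35 (SE 0.60, 95% interval -3.57 to -1.13, edgeR adjusted p = 0.00738). The others did not pass, with Nefm at 1.24 ( 95% interval 0.36 to 2.13, adjusted p = 0.0574), Prph at 1.10 (-0.04 to 2.25, adjusted p = 0.231), Nefl at 0.84 (-0.33 to 2, adjusted p = 0.412) and Nefh at 1.42 (-1.11 to 3.95, adjusted p = 0.556). By label Prph alone passed (-4.04, SE 0.78, adjusted p = 0.000855), and the others were Nefl 0.12 (-1.43 to 1.66), Nefm -0.63 (-2.35 to 1.09), Nefh -1 (-3.54 to 1.53) and Ina -0.93 (-2.78 to 0.93). For the inner ONL of E16.5 the difference of Ina from nerve was 3.26, near the value at E13.5, and a change with stage was not tested there. The outer ONL test called 1 of 5 members in each grouping, where 12.3% of all genes passed by the means and 12.5% by label. This test was added after the values had been seen.

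The mixture changed with stage as well. By the means, Ina held 53.6% ± 10.1 (SD, n = 4) of the summed CPM per kb in E11.5 nerve, 31.5% ± 4.99 (n = 7) in E13.5 nerve and 15.9% ± 2.5 (n = 4) in E16.5 nerve, and Prph held 23.9% ± 7.34, 59.2% ± 6.79 and 75.5% ± 8.92. In the ONL, Ina held 88.7% ± 6.04 (n = 5) at E13.5 and 25.9% ± 19.0 in the outer and 48.2% ± 6.32 in the inner part at E16.5. The summed level itself was 146 ± 30.2 CPM per kb in E11.5 nerve, 37.6 ± 10.1 in E13.5 nerve and 103 ± 19.1 in E13.5 ONL, all above the 16 of E16.5 nerve. By label Ina held 89.0% ± 6.91 in E11.5 nerve and 40.2% ± 21.2 in E13.5 nerve, and Prph 1.3% ± 1.03 and 50.2% ± 22.6. Over all 31 libraries Ina was the largest member in 13, Prph in 11 and Nefl in 7.

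Across the 31 libraries, Nefl and Nefm followed each other most closely of the member pairs, with Pearson's r of 0.855 between log2(CPM + 0.5) values. Ina followed Nefl (0.661) more than Nefm (0.552), Prph was nearest to Nefh (0.604), and Prph with Nefl (-0.12) and Nefm (-0.08) gave values near 0. Among 10727 genes with a mean of at least 10 CPM, those most like Ina were Bex2 (0.976), Uchl1 (0.974), Slc17a6 (0.961), Lrp11 (0.959) and Dbndd1 (0.956). Those most like Prph were D930020B18Rik (0.966), Cldn7 (0.958), 5730403I07Rik (0.955), C130093G08Rik (0.949) and Gfy (0.948). Nefl was most like Camkv (0.909), Crtac1 (0.891), Trim9 (0.864), Fdft1 (0.861) and Zwint (0.858), and Nefm like Greb1 (0.870), Nefl, Tle4 (0.840), Gm45837 (0.838) and Dixdc1 (0.832). Nefh had no close match, with Spats2 (0.706), Pirt (0.673), Suv39h1 (0.663), Intu (0.657) and Rnf114 (0.646) at the head. The libraries share their groups and vary in depth, so these are descriptions with no test, and Nefl and Nefm also share the overlap of their exons.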

How the data were processed

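Whole-number counts per gene were deposited. Per the labels and the methods, the authors made paired-end SMART-seq v4 and Nextera XT libraries, aligned reads to mm10 (GRCm38) with TopHat2 2.1.0 and counted them with HTSeq. The strand setting and overlap mode of the counting are not given in the sources used here. The labels name no molecular identifiers, so copies of 1 molecule cannot be told apart. Of the table's rows, 1 that named no gene was left out and held no values. Gene symbols, exons and coordinates came from the GENCODE annotation of GRCm38, and sequences from its transcripts.

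The counts were used as deposited. Library sizes were scaled by TMM, genes were filtered with edgeR's filterByExpr, and each comparison was tested with edgeR 4.0.16 (quasi-likelihood test, Benjamini-Hochberg adjustment over all genes tested, threshold 0.05) in R 4.3.3. E16.5 comparisons used the 15 E16.5 libraries, and early comparisons all 31, once by label and once by the study's means. CPM values are scaled by the factors of the fit of all 31 libraries by label, whereas the E16.5 tests used factors from their 15 libraries alone. Levels per length are CPM per kilobase of merged exons. Ratios to Tubb3 used log2(CPM + 0.5) and exact permutation. A gene at or under 3 counts in every library of a group was treated as at the floor. The code was tested on simulated data. Alternatives were DESeq2 1.42.0, other scalings, no filter, other sets of libraries, a replicate block and leaving out each library.

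Members are described in every comparison. From the other lists, up to 3 called genes with the largest change were eligible per E16.5 comparison. Markers are given as levels beside a result they move with. The genes most alike were the 5 with the highest r. The members and lists were chosen with earlier results of these data known. Replicate numbers recur between groups. Same-numbered libraries deviated together in every pair only for outer ONL and nerve at E16.5 (correlations 0.131 to 0.262, while libraries with different numbers gave -0.234 to 0.226). No label ties the numbers to embryos. The test results above came from fits without pairs, and a fit with the numbers as pairs was an alternative. For outer ONL minus nerve no member's call changed in that paired fit, while Ina changed sign (-0.0619).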

Additional observations from a re-analysis of the deposited data

Results flagged for a closer look

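In 7 of 45 sets, each of 1 member in 1 group of 4 or more libraries, a library lay far from the rest by Dixon's 95% criterion. That criterion flags about 1 in 20 by chance only if values are normal and sets independent. Neither can be assumed, since CPM were used without logs and the early libraries entered under both groupings. The number of flags can therefore not be set against chance. The library labelled E13.5 nerve replicate 1 stood apart within its label group for Nefl (32.5 CPM, others 5.37 to 11.8), Nefm (7.06 CPM, others 1.17 to 2.43) and Ina (262 CPM, others 27.7 to 46.9). It is 1 of the 10 libraries that the study's means place in another group. At E16.5, nerve replicate 2 had 8.85 CPM of Nefl (others 1.49 to 1.61), nerve replicate 3 had 1.37 CPM of Nefm (others 0.371 to 0.433) and outer ONL replicate 1 had 1.69 CPM of Nefh (others 0.356 to 0.503). By the study's means, the library labelled E13.5 nerve replicate 4 had 80.7 CPM of Prph (others 29.1 to 51.0).

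With the outer ONL standing for the ONL at E16.5, the ONL-to-nerve difference changed from E13.5 for Ina by the means (log2 change -2.35, edgeR adjusted p = 0.00738) and for Prph by label (-4.04, adjusted p = 0.000855). For the inner ONL the difference of Ina from nerve was 3.26, against 3.00 at E13.5, and that change was not tested.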

How the results depend on the processing

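Over the members and comparisons, 925 alternatives were computed, of which 892 kept the call and 16 changed the sign. The cause was not tested for any change. Trigeminal minus outer ONL had 2 members called in the fit of all 31 libraries by label and 2 with the replicate block, and from 2 to 4 when 1 library was left out. By label and with the replicate block, 0 members were called for E13.5 ONL minus nerve, 0 for E13.5 minus E11.5 nerve, 1 for E16.5 minus E13.5 nerve (1 to 2 when 1 library was left out) and 2 for E16.5 outer ONL minus E13.5 ONL. In these comparisons replicate numbers did not pair the libraries.

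Sign changes were confined to differences that did not pass the test. Prph, inner minus outer ONL, was -0.04 with upper quartile scaling, -0.00523 with all 31 libraries by label, -0.0068 by the study's means, -0.11 with the block and from -0.253 to 0.346 with 1 library left out. Ina, outer ONL minus nerve, was -0.0619 with the replicate block and from -0.193 to 0.959 with 1 library left out. Same-numbered libraries deviated together in that comparison, but no label makes them pairs. Leaving out 1 library gave -1.06 to 0.429 for Nefh in inner minus outer ONL, -1.12 to 0.0573 in outer ONL minus nerve and, by the means, -0.0984 to 0.933 in outer ONL minus E13.5 ONL, where Prph ran from -0.102 to 0.673.

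Ratios were also taken to the mean of the 16 genes of axon structure in place of Tubb3. The sign changed for trigeminal minus outer ONL in Nefl (-0.301), minus inner ONL in Nefl (-0.0127) and Ina (-2.62), and minus nerve in Ina (-1.59) and Prph (-2.04). It also changed for inner minus outer ONL in Ina (0.901) and for outer ONL minus nerve in Nefh (-0.0161). With Stmn2 these were trigeminal minus outer ONL in Nefl (-0.566) and Nefh (-0.00159), minus nerve in Ina (-0.719) and Prph (-1.17), minus inner ONL in Ina (-2.26) and inner minus outer ONL in Ina (0.278). A pseudocount of 0.1 gave -0.571 for Ina in trigeminal minus inner ONL, and 2 gave 0.75 against outer ONL. With these group sizes no ratio could pass after adjustment under any of these. Without length, Ina was the largest member in 16 libraries, and in 11 with exon bases outside overlaps, an alternative chosen after seeing the data. Counts under the floor limit Nefh.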
